A study of Mus musculus with 35 samples.

Results

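Acetate given on top of antibiotics was examined in the medial prefrontal cortex (mPFC) of Shank3-deficient mice (KO): 4 libraries labelled abx_and_acetate were set against 3 labelled abx, which is 7 of the 35 libraries of the series. All 14870 measured genes entered the comparison, and the members were chosen by the labels for genotype and treatment alone. The KO_abx group holds 2 males and 1 female, and the KO_abx_and_acetate group 1 male and 3 females. Both groups carry the Shank3 deficiency and both received antibiotics, so the 2 groups differ by acetate and, in these libraries, by their balance of sexes. The labels do not name the antibiotics, the acetate dose, the ages or the Shank3 allele. The other groups used below are KO_acetate (5 libraries) and KO_control (4, given water), and in wild-type mice (WT) WT_abx (4) and WT_abx_and_acetate (4). RNA came from mPFC punches and was sequenced in bulk, with strand-marking libraries read as paired ends. The question was which genes differ in the KO cortex when acetate, a product of gut bacteria, is supplied to mice treated with antibiotics.

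Acetate is a short-chain fatty acid that gut bacteria release from dietary fibre, and antibiotics that deplete those bacteria remove a source of it. In cells, acetate is joined to coenzyme A by acyl-CoA synthetases to give acetyl-CoA, the starting material of cholesterol and fatty acid synthesis and the donor for histone acetylation. The brain makes its own cholesterol, through a mevalonate arm that builds the isoprenoid units and a sterol arm that joins and closes them, and most genes of both arms are targets of the transcription factor SREBP2. Shank3 encodes a scaffold of the postsynaptic density of excitatory synapses.

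The depth of the 7 libraries was 19460308 to 22533748 reads over the measured genes, and their RNA integrity numbers were 9 to 9.3. Levels are log2 CPM, log2 of the reads of a gene scaled to a common library size. Shank3 stood between 4.18 and 4.91 in the 7 libraries, against 7.48 to 8.85 in the WT libraries. Y-linked genes matched the labelled sex in all 16 KO libraries. In 5 WT libraries, Shank3, its neighbour Acr or the Y-linked genes went against the labels. They are WT_abx 3, WT_abx 4, WT_acetate 2, WT_acetate 4 and WT_acetate 5, called the doubtful WT libraries here, and WT values below include them unless said otherwise. The 9 markers of cortical excitatory neurons summed to 7253 to 8902 CPM in the 7 libraries, and none was at 0 reads in any of them. In bulk tissue, fewer cells of a type and less RNA per cell cannot be told apart.

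No gene passed the threshold of 0.05 on the Benjamini-Hochberg adjusted p of limma, so 0% of the 14870 genes were called. The smallest adjusted p was 0.329, of Gm2897. At an unadjusted p under 0.05 there were 298 genes, 2.00% of those tested, fewer than the 744 expected if no gene differed. Of the 298, 169 (1.14%) were higher and 129 (0.868%) lower with acetate. Scaled by plain library totals, the split was 114 higher of 258. The 2 groups did not overlap in 765 genes (5.14%), against 5.71% expected if no gene differed. In 423 (2.84%) every KO_abx_and_acetate library was above every KO_abx library, and in 342 (2.30%) every one was below. The median standard error (SE) of a log2 fold was 0.13. All genes named in the next paragraphs are therefore given as values that did not pass the test, as are the members of every gene list.

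Among the 12 higher genes of smallest unadjusted p, 2 carry out metabolic steps and 2 act in mitochondria. Fdps makes farnesyl diphosphate in the mevalonate pathway and lies on chromosome 3 from 89093588 to 89101959 (GRCm38, minus strand). Its level was 5.67, 5.38 and 5.36 in the KO_abx libraries and 5.63, 5.81, 5.96 and 5.79 with acetate, a log2 fold of 0.33 ± 0.10 (SE), or 1.25-fold (limma adjusted p 0.9997). The groups overlapped, since KO_abx 1 was above KO_abx_and_acetate 1. Ggt1, an enzyme that cleaves extracellular glutathione, was at -0.04, 0.48 and 0.02 without acetate and at 0.84, 0.79, 0.80 and 1.13 with it. Its groups did not overlap, and the log2 fold was 0.71 ± 0.23.

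Top1mt, the mitochondrial topoisomerase I, had a log2 fold of 0.36 ± 0.11, with overlapping groups (3.17 to 3.48 against 3.42 to 3.76). Tmem177, which takes part in the assembly of cytochrome c oxidase, was at 2.97 to 3.17 against 3.28 to 3.51, with a log2 fold of 0.35 ± 0.11. Pfdn6 encodes a subunit of prefoldin, a chaperone that hands unfolded actin and tubulin to the cytosolic chaperonin. It varied least of these genes within KO_abx, at 5.21, 5.21 and 5.18, and stood at 5.33, 5.38, 5.36 and 5.52 with acetate (log2 fold 0.20 ± 0.06). The other genes of this set that lay apart in the 2 groups were Gm20390 (0.42 ± 0.13), Nudcd2 (0.30 ± 0.09), Gorab, a Golgi protein (0.34 ± 0.11), Pcdha5 (0.44 ± 0.14) and Lrrc24 (0.21 ± 0.07). Gm20390 spans Nme1 and Nme2 on the same strand, and Pcdha5 is 1 of a cluster of protocadherin alpha genes that share exons, so the reads of both are uncertain.

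The 12 lower genes of smallest unadjusted p came from varied functions. Cmya5 (myospryn), on chromosome 13 from 93040713 to 93144724 (minus strand), was at 3.48, 3.42 and 3.54 without acetate and at 2.78, 2.97, 3.16 and 3.01 with it. Every acetate library was lower, by a log2 fold of -0.53 ± 0.14, or 0.690 of the level in KO_abx. Armc2, known for its part in building the sperm flagellum, was likewise apart, at 3.31, 3.27 and 3.41 against 2.81, 2.98, 2.91 and 2.78 (-0.46 ± 0.15). In WT the same comparison gave 0.33 ± 0.13 for Cmya5 and 0.44 ± 0.14 for Armc2. Their differences between genotypes, -0.87 ± 0.19 and -0.90 ± 0.21, had the smallest adjusted p of that comparison, 0.883, and did not pass. Without the 5 WT libraries that went against their labels, the WT values were 0.34 ± 0.15 and 0.35 ± 0.17 and the differences -0.89 ± 0.20 and -0.80 ± 0.22, with a smallest adjusted p of 0.916.

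Sec24b, part of the COPII coat that buds vesicles from the endoplasmic reticulum, was at 5.92, 5.79 and 5.92 against 5.69, 5.60, 5.76 and 5.60, with no overlap (-0.21 ± 0.07). Mx1, an interferon-induced antiviral GTPase, gave -0.89 ± 0.31, with KO_abx_and_acetate 3 at 0.72 inside the KO_abx range of 0.57 to 1.17. Hacd4, a dehydratase of very long chain fatty acid elongation, gave -0.85 ± 0.31. Thbs3, a thrombospondin of the extracellular matrix, was at 3.68, 3.27 and 3.91 against 3.03, 2.91, 2.79 and 2.70 (-0.73 ± 0.27). Vasn, a membrane protein that binds TGF-beta, gave -0.60 ± 0.21. Nup54 of the nuclear pore (-0.28 ± 0.10), Wdr59, which acts in amino acid sensing upstream of mTORC1 (-0.18 ± 0.07), Igsf3 (-0.35 ± 0.13), Gpatch1 (-0.17 ± 0.06) and Fbxo18, a DNA helicase (-0.21 ± 0.08), complete the set. Markers of meningeal fibroblasts were also lower in the acetate group, with 0 of 19 above 0. Their score, the mean deviation of the members from their means over all libraries, was 1.18, 0.65 and -0.44 in KO_abx against -0.47, 0.09, 0.04 and -0.84. The part of those cells in the lower genes was not tested.

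**Figure D1:**
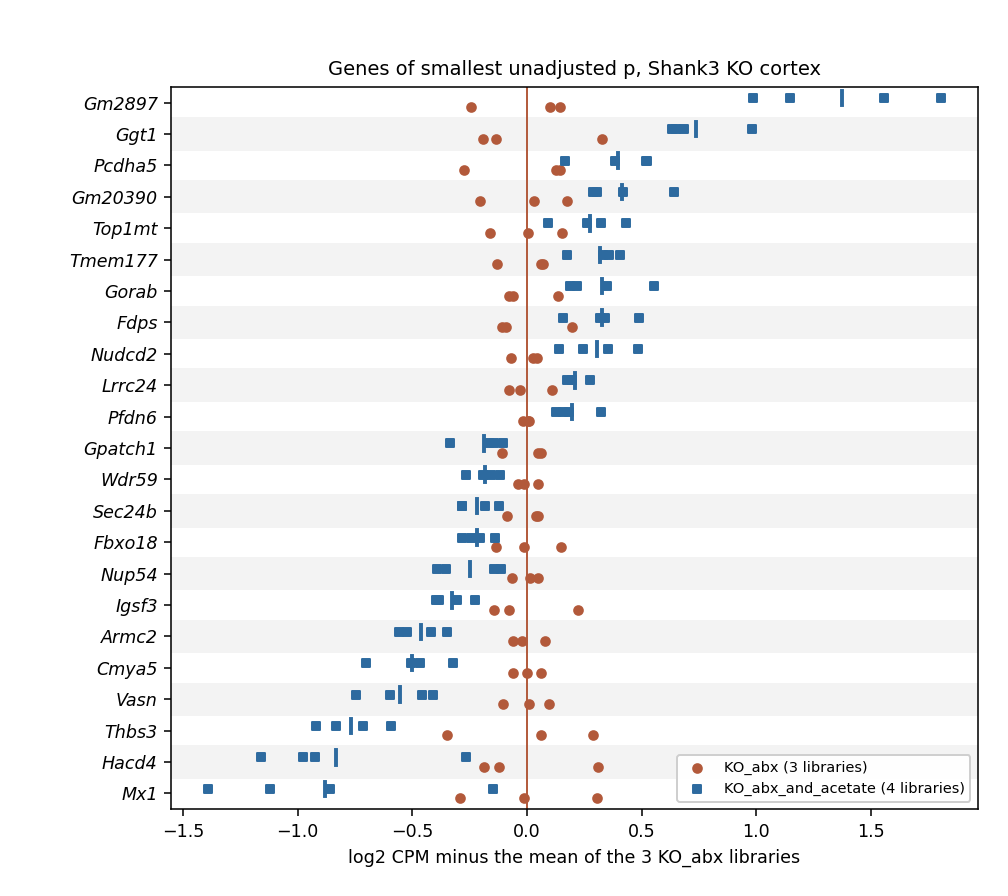
Levels of the named genes in each library, as log2 CPM minus the mean of the 3 KO_abx libraries, with circles for KO_abx, squares for KO_abx_and_acetate and a bar at the mean of the latter. Gm2897 shows the widest gap among the higher genes, while Fdps, Top1mt, Mx1 and Gpatch1 have groups that overlap. Gm2260 is left out because its low values would stretch the axis.

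Gm2897, a gene of a multi-copy family on chromosome 14 (3049285 to 3076840, plus strand), had the smallest p of all. It rested on 14, 11 and 13 reads in the KO_abx libraries and 44, 27, 26 and 40 with acetate. The levels were -0.54, -0.93 and -0.58 against 1.12, 0.30, 0.47 and 0.87, a log2 fold of 1.40 ± 0.28, or 2.64-fold. Over all 8 groups, the 3 KO_abx libraries lay lowest for this gene, and the acetate libraries lay among the KO_control values of 0.27 to 1.17. Without antibiotics, the acetate difference in KO had the other sign, -0.82 ± 0.24. The difference between the 2 acetate effects in KO was 2.21, with an adjusted p of 0.0212, and it was the 1 gene of 14870 (0.00672%) called in that comparison. Left without KO_abx 1, 2 or 3 in turn, the adjusted p was 0.0546, 0.167 and 0.0764. Leaving out KO_abx_and_acetate 1 or 4, KO_acetate 2 or 4 or KO_control 1, 2 or 3 also ended the call. A fit to the KO libraries alone (adjusted p 0.610) or with voom weights (0.0509) ended it too. Copies of this family are near-identical, and the sources used here do not say how the authors assigned reads among them.

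Gm2260, an unprocessed pseudogene on chromosome 14 (26016431 to 26025837), was at 2, 1 and 30 reads in KO_abx and 17, 38, 29 and 31 with acetate. KO_abx 3 lay inside the range of the acetate group and the other 2 libraries below it, with a log2 fold of 2.27 ± 0.69. In KO_abx against KO_control, which shares the KO_abx libraries, Gm2260 (-3.76) and Gm2897 (-1.53) were both called lower, each with an adjusted p of 0.0374 (0.0134% of genes). Neither was called there without KO_abx 1 or 2 or KO_control 1, 2 or 3, nor from the KO libraries alone, from those 2 groups alone, with voom weights, with plain library totals or with 2 reads added. Without KO_abx 3 Gm2260 alone was called, and without KO_control 4 Gm2897 alone. Gm20388, which was singled out after its values were seen, had 54, 76 and 42 reads in KO_abx and 0 in each of the 4 acetate libraries. With a floor of 3 reads per library, it was at least 18.8-fold lower in the acetate group. It was also at 0 reads in 3 of 4 KO_control, 3 of 5 KO_acetate and 2 of 4 WT_abx_and_acetate libraries. Its annotated span overlaps 90 genes on the same strand, so its reads cannot be assigned with certainty. Hmga2, chosen in the same way, had 2, 7 and 17 reads against 14, 19, 23 and 29.

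**Figure D2:**
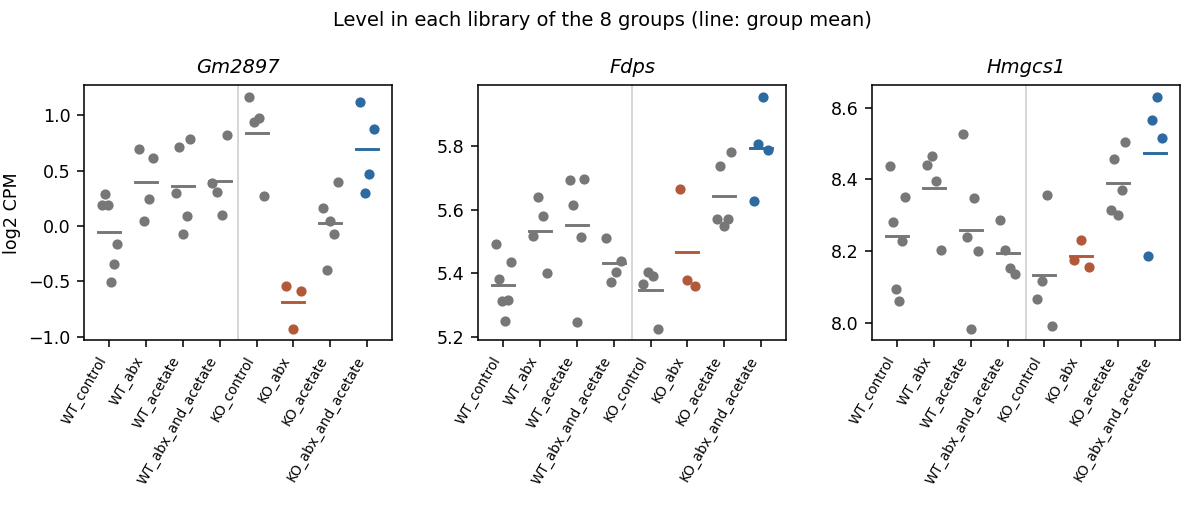
Log2 CPM of Gm2897, Fdps and Hmgcs1 in every library of the 8 groups, with a line at each group mean, KO_abx in brown and KO_abx_and_acetate in blue. For Gm2897 the 3 KO_abx points lie below all others, and for Fdps the KO_abx_and_acetate mean is the highest of the 8.

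The targeted gene was a little lower with acetate. Shank3 transcript left in the KO libraries was at 4.71, 4.53 and 4.91 in KO_abx and 4.43, 4.18, 4.46 and 4.25 in KO_abx_and_acetate, so that the groups did not overlap. The log2 fold was -0.35 ± 0.20 and did not pass. Its paralogs gave 0.01 ± 0.15 for Shank1 and -0.04 ± 0.15 for Shank2. Acr, the gene next to Shank3, was at 5.62, 5.53 and 5.63 against 5.35, 5.65, 5.31 and 5.28. Its log2 fold of -0.43 ± 0.78 came from the fit to all 35 libraries. Among them, the doubtful WT_acetate 2, WT_acetate 5 and WT_abx 4 stood at 3.62 to 4.56 for Acr. The other WT libraries stood at -0.46 to 0.83.

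Genes of cholesterol synthesis were higher with acetate in nearly every step. Of the 22 enzymes listed, all measured, 21 had a log2 fold above 0, against 50.2% of all genes (49.8% were below 0), and their median was 0.17 against 0.00. None was called. At an unadjusted p under 0.05, 9 of the 22 were higher and 0 lower, against 1.14% and 0.868% of all genes. In 6 of the 22 every acetate library was above every KO_abx library, against 2.84% of all genes. These lists were drawn up with earlier results of the same data known, so the counts describe the libraries and test nothing.

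In the mevalonate arm, 8 of 9 members were above 0, with a median of 0.20. Hmgcs1 condenses acetyl-CoA with acetoacetyl-CoA and was at 8.17, 8.23 and 8.16 without acetate and at 8.19, 8.57, 8.63 and 8.52 with it (0.28 ± 0.11). The 3 females of the acetate group were higher than all KO_abx libraries, while the male, KO_abx_and_acetate 1, lay among them. Idi1, which isomerises the isoprenoid unit, was at 5.20, 5.62 and 5.54 against 5.73, 6.08, 5.73 and 5.82 (0.35 ± 0.13), and Mvd, which makes that unit, at 4.12, 4.27 and 4.33 against 4.44, 4.73, 4.46 and 4.42 (0.25 ± 0.10). The groups of both lay apart. Ggps1, which leads away from sterols to geranylgeranyl diphosphate, was the 1 member below 0 (-0.05 ± 0.07).

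All 13 members of the sterol arm were above 0, with a median of 0.16. Cyp51, the lanosterol demethylase, was at 5.91, 5.68 and 5.96 against 6.39, 6.08, 6.36 and 6.01 (0.36 ± 0.12). Sqle, whose epoxidation of squalene is a controlled step, was at 6.19, 6.0 and 6.10 against 6.27, 6.32, 6.41 and 6.44 (0.27 ± 0.11), and Msmo1, a methyl sterol oxidase, at 5.88, 5.94 and 5.93 against 5.98, 6.47, 6.22 and 6.17 (0.27 ± 0.11). Fdft1, squalene synthase, was the fourth member whose groups did not overlap (0.18 ± 0.11). Folds were smaller for Dhcr7 (0.04 ± 0.08), Lss (0.04 ± 0.16) and Lbr (0.04 ± 0.17).

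**Figure D3:**
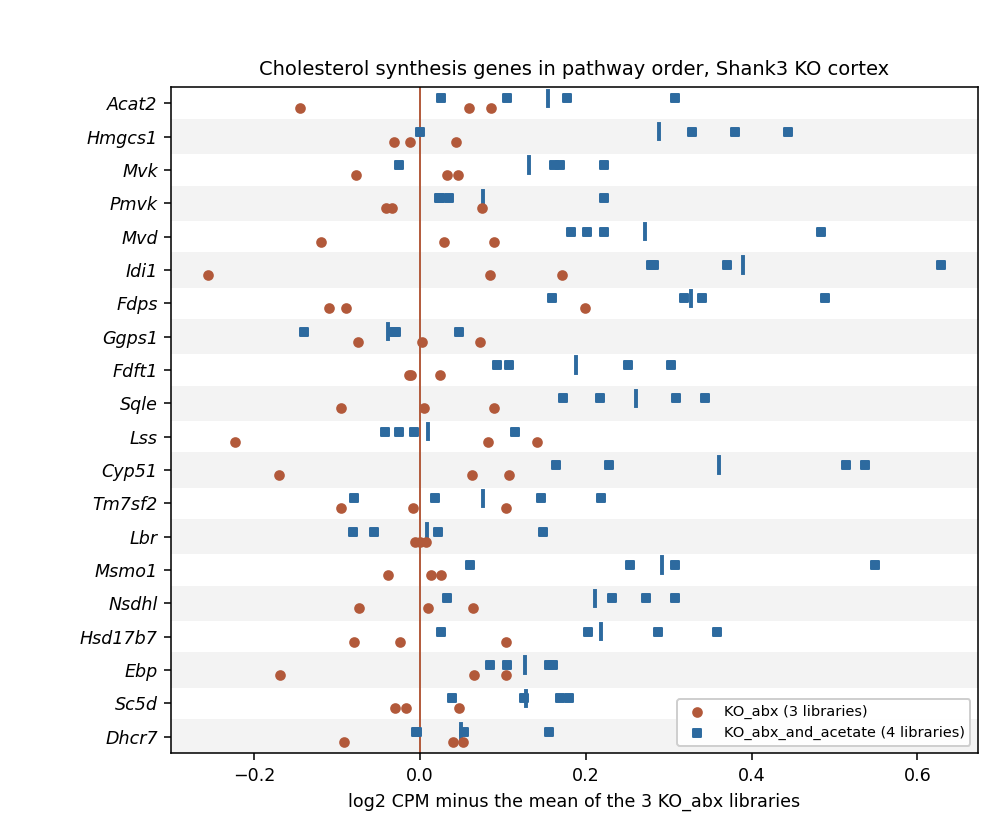
Log2 CPM of 20 of the 22 cholesterol synthesis genes in each library minus the mean of the 3 KO_abx libraries, from the start of the pathway at the top to its end, with circles for KO_abx and squares for KO_abx_and_acetate. The bar marking the acetate mean lies right of 0 for every gene shown except Ggps1, and the groups lie apart for Mvd, Idi1, Fdft1, Sqle, Cyp51 and Msmo1.

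Promoter sequences are shown for Hmgcs1, Idi1 and Cyp51, whose folds were among the largest of the pathway. SREBP2 acts with the factor NF-Y, which binds CCAAT boxes, so the windows were searched for those letters. A window runs from 250 bases before to 50 after the annotated start (RefSeq, GRCm38.p6), and 17 of the 22 genes matched the table, with 20 windows. Fdps, Sqle and Fdft1 were among the genes with no entry. Capitals mark CCAAT, read on either strand as CCAAT or ATTGG, and in Hmgcs1 also a match to TCACNCCAC, a form of the sterol response element. The windows are Hmgcs1 at chr13:119690101-119690400 on the plus strand, Idi1 at chr13:8885356-8885655 on the plus strand and Cyp51 at chr5:4104648-4104947 on the minus strand.
Hmgcs1: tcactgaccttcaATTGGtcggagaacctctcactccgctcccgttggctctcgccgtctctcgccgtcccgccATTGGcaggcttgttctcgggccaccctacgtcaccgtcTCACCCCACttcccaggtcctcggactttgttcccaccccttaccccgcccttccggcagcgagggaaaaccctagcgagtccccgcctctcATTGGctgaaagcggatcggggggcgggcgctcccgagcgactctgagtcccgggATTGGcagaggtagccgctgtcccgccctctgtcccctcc
Idi1: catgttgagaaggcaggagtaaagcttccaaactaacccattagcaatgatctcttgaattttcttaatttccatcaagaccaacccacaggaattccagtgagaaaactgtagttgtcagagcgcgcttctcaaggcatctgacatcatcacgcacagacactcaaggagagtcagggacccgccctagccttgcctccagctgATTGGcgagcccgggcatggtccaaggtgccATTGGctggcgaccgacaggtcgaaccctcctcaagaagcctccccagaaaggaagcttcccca
Cyp51: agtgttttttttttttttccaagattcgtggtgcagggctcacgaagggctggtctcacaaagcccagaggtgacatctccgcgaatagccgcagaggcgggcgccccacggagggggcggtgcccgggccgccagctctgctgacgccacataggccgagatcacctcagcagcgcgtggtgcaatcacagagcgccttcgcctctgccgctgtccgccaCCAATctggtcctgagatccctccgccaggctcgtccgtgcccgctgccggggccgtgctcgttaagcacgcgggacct
CCAAT was found in 16 of the 20 windows (80%), against 37.1% of the 14188 windows of measured genes. TCACNCCAC was found in 1 window, that of Hmgcs1 (5% against 1.13%), and the E-box CACGTG in 3 (15% against 9.36%). The TCACNCCAC match in Hmgcs1 shares no letter with a CCAAT. A match to so short a motif describes the sequence and is not a bound site.

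The cholesterol pattern was not even over the libraries. The sterol arm score was -0.03, -0.06 and -0.03 in KO_abx and 0.07, 0.16, 0.13 and 0.10 with acetate, and the mevalonate arm score -0.03, -0.06 and -0.07 against 0.02, 0.22, 0.19 and 0.17. Both scores lay apart in the 2 groups, and in both the male acetate library was the lowest of its group. Between males (1 library against 2) the median of the 22 genes was 0.05, with 14 above 0, and between females (3 against 1) it was 0.22, with 19 above 0. Left without KO_abx 3 or KO_abx_and_acetate 2, 5 genes instead of 9 were at an unadjusted p under 0.05, and with KO_abx 1 left out, 6. Fitted to these 7 libraries alone, 4 were, and to the 16 KO libraries, 6. Over all genes, 125 were higher at that p without KO_abx 3, 164 without KO_abx_and_acetate 2 and 189 without KO_abx 1, against 169. In the fits to the 7 libraries and to the 16 KO libraries, 173 and 122 of all genes were. The oligodendrocyte score was at -0.81, -0.13 and 0.69 in KO_abx against 0.40, -0.17, -0.80 and 0.30, and the part of these cells in the cholesterol values was not tested.

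In WT mice, the same addition of acetate to antibiotics gave the other sign for most of these genes. Of the 22, 20 were below 0 in WT, against 50.7% of all genes (median -0.11), and 7 were lower at an unadjusted p under 0.05, against 2.76% of all genes. None of the 14870 genes was called in WT, and 910 (6.12%) were at an unadjusted p under 0.05. The difference between genotypes, KO minus WT, was above 0 for 21 of the 22, against 50.2% of all genes (median 0.25). At an unadjusted p under 0.05, 12 of them were higher in that difference, against 1.82% of all genes, and none passed after adjustment (smallest adjusted p 0.9998). The largest were Idi1 (0.67 ± 0.18), Msmo1 (0.56 ± 0.15), Sqle (0.48 ± 0.15) and Mvk, mevalonate kinase (0.47 ± 0.13). Without the 5 WT libraries that went against their labels, 18 of the 22 were below 0 in WT (median -0.15) and 5 lower at an unadjusted p under 0.05. Then 20 of 22 differences were above 0, 10 at an unadjusted p under 0.05, with a median of 0.32. Over all genes this comparison called 0, with 561 (3.77%) at an unadjusted p under 0.05. Oligodendrocyte and myelin markers had the same signs with all libraries as labelled. In WT, 0 of 24 were above 0 (median -0.40), against 49.3% of all genes. The difference between genotypes was above 0 for 23 of 24 (median 0.54), and 0 were at an unadjusted p under 0.05. The part of these cells in the difference of the cholesterol genes was not tested.

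Acetate given without antibiotics was compared in other KO libraries, KO_acetate against KO_control. No gene was called there either, and 1940 (13%) were at an unadjusted p under 0.05. Of the 22 cholesterol genes, 20 were above 0, against 49.6% of all genes, with a median of 0.18. The oligodendrocyte and myelin markers were above 0 there in 24 of 24 (median 0.44), and their part in the cholesterol values was not tested. Fdps gave 0.30 ± 0.08 and Sqle 0.32 ± 0.10 in that comparison, close in size to their values with antibiotics, while Cyp51 gave 0.11 ± 0.11 against 0.36 ± 0.12. For none of the 22 was the difference between the acetate effects with and without antibiotics at an unadjusted p under 0.05, against 1.86% of all genes. Set against KO_control, the KO_abx libraries had a median of 0.08 over the 22 genes and KO_abx_and_acetate one of 0.22, and these 2 values share their control libraries.

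Genes around the pathway differed less. Among 16 genes of SREBP control and cholesterol uptake, 9 were above 0 (median 0.03, but 0.004 without KO_abx_and_acetate 1 and 0.06 without KO_abx_and_acetate 3) and none was at an unadjusted p under 0.05. Stard4, a sterol carrier, lay apart in the groups (0.20 ± 0.11), and Insig1, the SREBP target that holds the factor back, gave 0.19 ± 0.11, while Scap, its escort, gave -0.11 ± 0.07. Of 12 genes of cholesterol efflux and turnover, 3 were above 0 (median -0.06, but -0.007 without KO_abx_and_acetate 4 and 0.03 between males). Cyp46a1, which makes the hydroxysterol that neurons export, was lower in all acetate libraries (7.87, 7.87 and 7.74 against 7.66, 7.73, 7.70 and 7.73, or -0.12 ± 0.09).

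The genes that handle acetate itself gave small values. Of 12 genes of acetate activation and acetyl-CoA use, 9 were above 0 (median 0.04, but 0.10 without KO_abx 3), and none was at an unadjusted p under 0.05. Acss2, the cytosolic and nuclear acetyl-CoA synthetase, was at 5.55, 5.77 and 6.0 against 5.94, 5.94, 5.61 and 5.91 (0.06 ± 0.12), and its mitochondrial relative Acss1 gave 0.16 ± 0.11. Slc25a1, the citrate carrier that supplies cytosolic acetyl-CoA, gave 0.14 ± 0.08, and Acly, which splits that citrate, 0.08 ± 0.07. Acacb, the mitochondrial acetyl-CoA carboxylase, was lower in every acetate library (2.73, 3.12 and 2.82 against 2.57, 2.57, 2.72 and 2.08), a log2 fold of -0.43 ± 0.23, and Mlycd, which undoes its reaction, gave -0.16 ± 0.09. Of 5 receptors for short-chain fatty acids or lactate, Olfr78 (-0.66 ± 0.47) and Hcar1 (-0.81 ± 0.62) were measured, at low levels. Of 8 monocarboxylate carriers and lactate dehydrogenases, 5 were above 0 (median 0.03, but -0.04 without KO_abx 1 and -0.05 between males), and Slc16a1 gave 0.14 ± 0.16. Ppara, a regulator of fatty acid oxidation, was the 1 gene of the 17 in that list at an unadjusted p under 0.05, at 2.02, 2.13 and 1.86 against 1.49, 1.74, 1.70 and 1.22 (-0.45 ± 0.22), while 11 of the 17 were above 0 (median 0.06, but 0.01 without KO_abx 1).

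Genes that write and erase histone acetylation showed no common direction. Of 15 acetyltransferases, 8 were above 0 (median 0.00), and Ep300, a broad coactivator, was lower in all acetate libraries (-0.13 ± 0.07) while Kat8 gave 0.16 ± 0.09 and Hat1 0.18 ± 0.11. Of 11 classical deacetylases, 4 were above 0 (median -0.04, and 0.02 without KO_abx 3), with the cytosolic deacetylase Hdac6 lower in every acetate library (-0.17 ± 0.10), Hdac4 at 0.11 ± 0.09 and Hdac7 at -0.25 ± 0.26. The 7 sirtuins had a median of -0.02, which was -0.15 without KO_abx 1, 0.04 without KO_abx_and_acetate 3 and -0.40 between females, and Sirt6 (-0.17 ± 0.12), Sirt4 (-0.25 ± 0.21) and Sirt5 (0.13 ± 0.13) had the smallest p. None of these genes was at an unadjusted p under 0.05.

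Nuclear genes of oxidative phosphorylation were slightly higher with acetate almost throughout. Of 76 measured subunits, 75 were above 0, with a median of 0.13. In 22 (28.9%) every acetate library was above every KO_abx library, against 2.84% of all genes, and 7 were higher at an unadjusted p under 0.05, against 1.14%. Ndufa3, a complex I subunit, was at 4.76, 4.93 and 5.0 against 5.16, 5.13, 5.18 and 5.32 (0.28 ± 0.11). The ATP synthase subunits Atp5k (0.32 ± 0.13) and Atp5o (0.19 ± 0.07) also lay apart in the groups. The median was 0.11 between males and 0.14 between females, with 71 of 76 above 0 in each sex. At an unadjusted p under 0.05 there was 1 gene without KO_abx 1, 3 without KO_abx 3, 12 without KO_abx_and_acetate 3 and 16 without KO_abx 2. There were 12 with no term for sex and 3 from the KO libraries alone. Over all genes, 189 were higher at that p without KO_abx 1 and 125 without KO_abx 3, against 169. Without KO_abx_and_acetate 3 and KO_abx 2, 207 and 262 were. With no term for sex 213 were, and from the KO libraries alone 122. The score of the subunits was lowest in KO_abx 1, at -0.20.

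Cytosolic ribosomal proteins, the subunits of the translation machinery, had a like pattern, with 80 of 82 above 0 and a median of 0.11. In 16 of them (19.5%) every acetate library was above every KO_abx library, against 2.84% of all genes, and 4 were higher at an unadjusted p under 0.05, against 1.14%. Rpl15 was at 6.56, 6.59 and 6.43 against 6.70, 6.73, 6.69 and 6.73 (0.19 ± 0.08), and Rpl28 gave 0.17 ± 0.07. Rps12 was at 0 reads in 5 of the 7 libraries. Left without KO_abx 3, the median was 0.06. At an unadjusted p under 0.05 there was 1 gene without KO_abx 3 or KO_abx_and_acetate 4, 2 without KO_abx_and_acetate 1, 9 without KO_abx_and_acetate 3 and 12 without KO_abx 2. There were 18 in a fit to these 7 libraries alone, 8 with no term for sex or without the 5 doubtful WT libraries, and 2 with plain library totals or quantile normalization. Over all genes, 125 were higher at that p without KO_abx 3, 119 without KO_abx_and_acetate 4 and 212 without KO_abx_and_acetate 1, against 169. Without KO_abx_and_acetate 3, KO_abx 2 or the 5 doubtful WT libraries, 207, 262 and 173 were. The fit to the 7 libraries gave 173, no term for sex 213, plain library totals 114 and quantile normalization 209. The 13 mitochondrially encoded genes were all above 0 (median 0.15). KO_abx_and_acetate 2 stood high among them, with mt-Nd1 at 12.44 against 11.82 to 12.04 in the other 6 libraries, and without it the median was 0.06. Of 31 proteasome subunits, 27 were above 0 (median 0.04), but 20 without KO_abx 3 (median 0.01) or KO_abx_and_acetate 4 (0.02) and 21 with plain library totals (0.02), while without KO_abx 1 the median was 0.08. Psmb6 (0.18 ± 0.07) and Psma7 (0.12 ± 0.05) lay apart in the groups. In KO without antibiotics, acetate gave 75 of 76 oxidative phosphorylation genes above 0 (median 0.14), against 49.6% of all genes. Ribosomal proteins gave 77 of 82 there (0.10), proteasome subunits 30 of 31 (0.09) and mitochondrially encoded genes 3 of 13 (-0.04). In WT, the medians were -0.01 for oxidative phosphorylation and -0.07 for ribosomal proteins. The differences between genotypes were above 0 for 72 of 76 and 77 of 82 members, against 50.2% of all genes. Of these, 5 and 11 were higher at an unadjusted p under 0.05, against 1.82% of all genes, and none passed after adjustment. Without the 5 doubtful WT libraries, the WT medians were -0.03 and -0.09. The differences were then above 0 for 72 and 78 members, with 6 and 20 higher at an unadjusted p under 0.05.

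**Figure D4:**
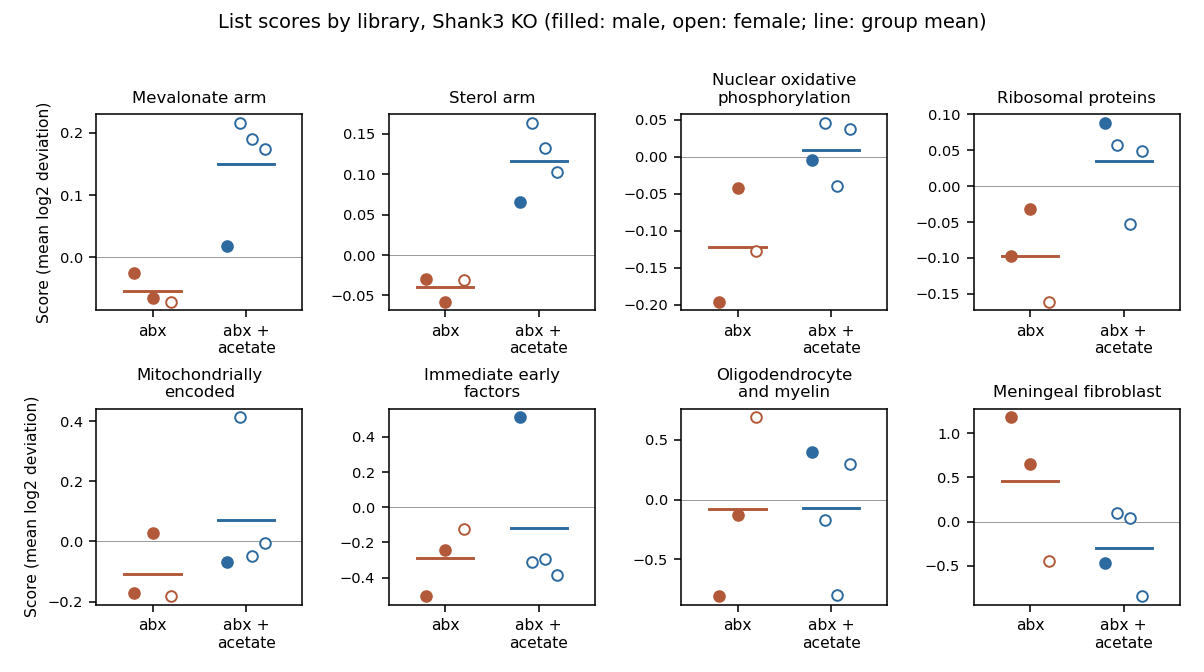
Scores of 8 gene lists in each of the 7 libraries, as the mean log2 deviation of the members from their means over all 35 libraries, with filled circles for males, open circles for females and a line at each group mean. The 2 cholesterol arms lie apart in the groups, while the groups overlap in the immediate early, oligodendrocyte and meningeal scores.

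Other energy genes had medians near 0. Of 18 glycolytic genes, 15 were above 0 (median 0.05, but -0.02 between males), and Pgk1 lay apart in the groups (0.11 ± 0.08). Of 22 genes of the citric acid cycle and pyruvate entry, 18 were above 0 (median 0.04, but 0.01 without KO_abx 1), with Fh1, fumarase, at 0.14 ± 0.08, Cs, citrate synthase, at 0.09 ± 0.06 and Mdh2, malate dehydrogenase, at 0.09 ± 0.07. Among 21 antioxidant genes, 16 were above 0 (median 0.07, but 0.02 without KO_abx 3 and 0.001 between males), and Sod1, superoxide dismutase (0.12 ± 0.07), and Keap1, the brake on NRF2 (0.11 ± 0.06), lay apart.

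Activity and stress genes varied with single libraries and with the fit. Of 21 immediate early transcription factors, 16 were above 0 (median 0.16), but the score was 0.51 in KO_abx_and_acetate 1 against -0.31, -0.29 and -0.39 in the rest of its group. Without that library the median was -0.18, and without KO_abx 3 it was 0.31. Atf3 was at 1.09 ± 0.58, Klf2 at 0.42 ± 0.31 and Jun at 0.22 ± 0.17, none at an unadjusted p under 0.05. A fit to the 7 libraries alone gave 20 of the 21 above 0 (median 0.28). There, 3 were higher at that p, against 173 of the 14870 genes. In WT, 1 of the 21 was above 0 (median -0.38), against 49.3% of all genes. The difference between genotypes was above 0 for 20 (median 0.47), against 50.2% of all genes. Of these, 3 were higher at an unadjusted p under 0.05, against 1.82% of all genes. Of 20 activity-induced effectors, 13 were above 0 (median 0.06, but -0.03 without KO_abx_and_acetate 1, 0.15 without KO_abx 2, 0.30 between males and -0.07 between females), among them Sik1 (0.40 ± 0.34) and Spry4 (0.27 ± 0.24). Glucocorticoid-responsive genes divided evenly (11 of 22 above 0), and Ddit4, an inhibitor of mTORC1, was at 5.46, 5.35 and 5.47 against 5.93, 5.67, 6.04 and 5.69 (0.45 ± 0.25), with no overlap. Clock genes were below 0 in 17 of 19 (median -0.08, but 0.14 between males and -0.18 without KO_abx_and_acetate 1), with the repressor Nr1d1 lower in every acetate library (-0.21 ± 0.16) and Nfil3 at 0.44 ± 0.27. Fitted to these 7 libraries alone, 7 of the 19 were above 0 (median -0.04), and with no term for sex 6 were (-0.05). Interferon-stimulated genes were below 0 in 21 of 26 (median -0.14), with Ifit3 at -0.41 ± 0.30. Between females alone their median was 0.12, without KO_abx 1 it was -0.05 and without KO_abx 3 -0.29. The 25 genes of the endoplasmic reticulum stress response had a median of 0.01 (-0.05 without KO_abx 3) and the 22 cytosolic chaperones one of 0.05 (0.02 without KO_abx 3, 0.11 without KO_abx 2).

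Synaptic genes differed little. The median log2 fold was 0.03 over 32 glutamate receptor genes, -0.02 over 28 postsynaptic scaffolds, -0.02 over 26 adhesion genes, 0.02 over 25 genes of presynaptic release and 0.03 over 19 genes of GABA receptors and synapses. Each of these medians changed sign in at least 1 alternative. None of the genes was at an unadjusted p under 0.05. The groups did not overlap in only 2 of them, against 5.14% of all genes. They were Shank3 and Unc13b, a priming factor of synaptic vesicles. Grik3, a kainate receptor subunit, gave 0.36 ± 0.25. Of 33 potassium, sodium and calcium channels, 10 were above 0 (median -0.04, and 0.01 without KO_abx 3), with Cacna1c at -0.14 ± 0.10. In WT, 28 of the 33 channels were above 0, against 49.3% of all genes (median 0.14). The difference between genotypes was below 0 for 27, against 49.8% of all genes, of which 8 were lower at an unadjusted p under 0.05, against 1.95% of all genes. Without the 5 doubtful WT libraries, 26 of the 33 were above 0 in WT (median 0.10), and 29 differences were below 0, of which 5 were lower at an unadjusted p under 0.05. The receptors for monoamines, oxytocin and vasopressin had a median of -0.02.

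Markers of the cell types in the punch varied between libraries of a group. Meningeal fibroblast genes, which mark the brain's outer covering, summed to 496 to 1460 CPM in KO_abx and 297 to 698 in the acetate group, and their median log2 fold was -0.78. All 19 were below 0, among them Foxc2 (-1.56 ± 0.74) and Col1a2 (-0.76 ± 0.45). Between males the median was -1.29, between females 0.25, without KO_abx 1 it was -0.41 and without KO_abx 3 -1.43. Oligodendrocyte and myelin genes summed to 1597 to 5185 CPM against 1733 to 4187, with 19 of 24 above 0 (median 0.13). Their median was 0.91 between males and -1.0 between females. Without KO_abx 1 it was -0.28 and without KO_abx 3 0.70. Fitted to these 7 libraries alone, 3 of the 24 were above 0 (median -0.06), and with no term for sex 16 were (0.03).

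Layer markers pointed in opposite directions. Of 19 markers of deep cortical layers, 17 were above 0 (median 0.28), among them Tle4 (0.33 ± 0.22), Ntsr1 (0.45 ± 0.35) and Rprm (0.60 ± 0.47), and of 16 upper layer markers 4 were (median -0.13). The deep layer score spread from -0.34 to 0.14 in KO_abx and from -0.39 to 0.51 with acetate, so that the groups overlapped. Without KO_abx 2 the deep layer median was 0.13 and the upper layer median 0.05, without KO_abx_and_acetate 2 they were 0.44 and -0.22, and between females -0.06 and 0.11. Microglial (median 0.06), astrocytic (0.03) and endothelial (0.02) markers had medians near 0, each of which changed sign in some alternatives. Bmp4, of the oligodendrocyte precursor list, was lower in all acetate libraries (-0.91 ± 0.43), and Ndufa4l2, a pericyte gene, higher in all (0.63 ± 0.23). Sst and Npy, peptides of interneurons, gave 0.31 ± 0.16 and 0.31 ± 0.17. Among choroid plexus and ependymal markers 8 of 11 were below 0 (median -0.28, but 0.25 without KO_abx 3), and Ttr was at 0 reads in 1 library. The remaining marker lists had medians of 0.12 (striatal neurons, 13 of 17 above 0), 0.10 (GABAergic interneurons, 14 of 21), 0.24 (blood, 5 of 6), -0.12 (hippocampus, 4 of 11), -0.04 (pericytes, 7 of 15) and 0.01 (oligodendrocyte precursors, 6 of 12), and each changed sign in at least 1 alternative. The part of tissue makeup in the values of the other genes was not tested.

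**Figure D5:**
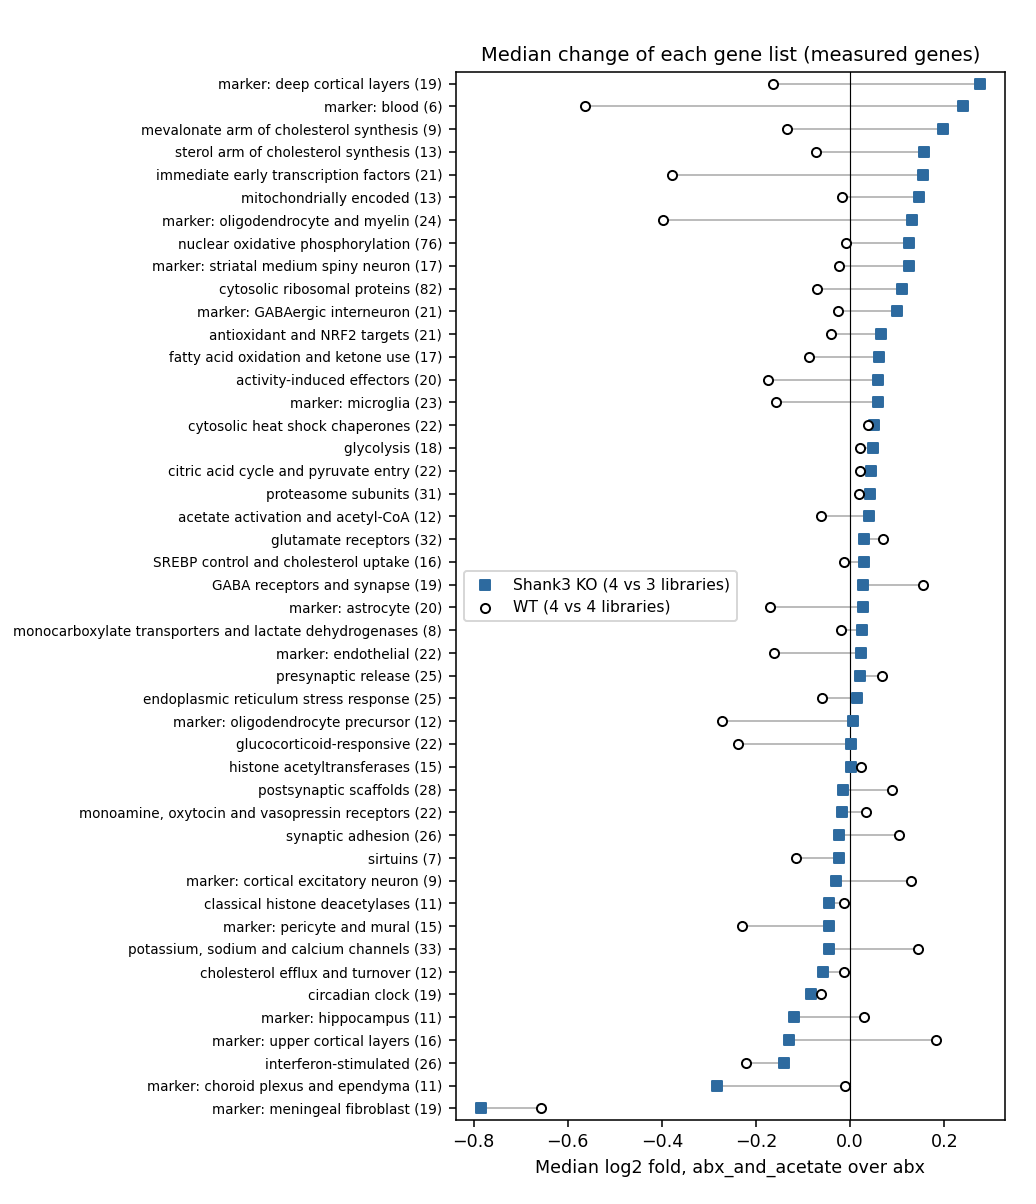
Median log2 fold of abx_and_acetate over abx for each gene list with at least 5 measured genes (number in parentheses), as squares in KO and open circles in WT, joined by a line. Both arms of cholesterol synthesis lie right of 0 in KO (0.20 and 0.16) and left of it in WT, and with all libraries as labelled meningeal fibroblast markers lie farthest left in both genotypes (in WT, their median was -0.03 without the 5 doubtful libraries).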

How the data were processed

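RNA from mPFC punches of 35 samples was sequenced in bulk. The authors deposited 1 matrix of log2 CPM values. Among tools, the processing notes of the submitters list limma, without a version. The form of the values is log2 of reads plus 0.5 over an effective library size, and whole reads were recovered from it within a tolerance of 0.01. Aligner, counter, build and any filter: not given in the sources used here. The 35 columns were matched to samples by title, and 0 were left unused. In the matrix, 23 rows repeat the values of another row and 23 names are in date form. Positions come from GENCODE vM21 (GRCm38).

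One limma fit (limma 3.58.1, R 4.3.3) was made on those log2 values, with 8 group means and labelled sex over 35 libraries, a prior variance that follows the mean and 26 residual degrees of freedom. Tests were 2-sided, with Benjamini-Hochberg adjustment across 14870 genes (threshold 0.05). Folds are adjusted for labelled sex, while levels by library are as deposited. The sex term rests on the labels of all 35 libraries, so it also enters the KO folds. Among them, WT_abx 3 and WT_acetate 2, 4 and 5 had Y-linked genes that went against the label. Named genes are those past the threshold, filled to 12 per direction by the smallest unadjusted p among genes with a mean of at least 0. Within a described list, the 3 members of smallest p are named, of which the text prints a part. Shank3, Shank1, Shank2 and Acr are always named. Some list members are counted but not reported here by name. Further members of the cholesterol, acetate and marker lists, with Gm20388 and Hmga2, were picked with values in view. The members and all 47 gene lists were chosen with earlier results of these data known. Whether each library is from its own animal is not in the labels, and the p-values then reflect only how these samples vary, which may be technical. Within both groups, pairs of libraries differed by more than counting noise. The fit was tested on simulated data.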

Additional observations from a re-analysis of the deposited data

Results flagged for a closer look

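Only the 4 KO_abx_and_acetate libraries were screened for outliers. In 5 of 76 sets of values, 1 library lay far from the rest of that group, where chance gives about 1 in 20. Ggt1 was at 1.13 in KO_abx_and_acetate 4, against 0.79 to 0.84 in the other 3 libraries. The sirtuin score was -0.12 in KO_abx_and_acetate 3, against 0.06 to 0.08. The score of immediate early transcription factors was 0.51 in KO_abx_and_acetate 1, against -0.39 to -0.29. In KO_abx_and_acetate 2, the score of mitochondrially encoded genes was 0.41, against -0.07 to -0.01, and that of antioxidant genes 0.053, against -0.013 to -0.005.

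For Gm2897, the acetate effect in KO differed between mice with and without antibiotics by 2.21 on the log2 scale (limma interaction term, adjusted p 0.0212). The adjusted p was 0.610 in a fit to the KO libraries alone, 0.0509 with voom weights, and 0.0546, 0.167 and 0.0764 without KO_abx 1, 2 or 3, so that each of these ended the call. All 3 KO_abx libraries were below all 4 KO_abx_and_acetate libraries.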

How the results depend on the processing

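With 3 libraries against 4 and a median SE of 0.13, differences of the size seen in most lists could not be called for single genes. No gene was called in KO abx_and_acetate against abx under any alternative except quantile normalization, which called 1, Gm2897 (1.57, adjusted p 0.0114); over the alternatives its adjusted p ran from 0.0114 to 0.9999. Genes at an unadjusted p under 0.05 numbered 216 to 516 with 1 library left out (516 without KO_abx 2) and 466 with only the compared groups fitted, against 298. Of 166 named values, 2791 of 2810 alternative values stayed on the same side of 0 and of the threshold. Most of these genes were picked for a small p in the fit to all 35 libraries, and none was called there. The count was thus largely fixed by the choice of genes and does not measure how stable they are. Comparisons within 1 sex were not among these alternatives.

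The WT comparison gave 1 call with only its groups fitted (Cbx3-ps7), and leaving out each library gave 0 to 1 (Aldh4a1, without WT_abx_and_acetate 2). KO acetate against control gave 0 to 1 with a library left out (Alox12b without KO_acetate 2, Gm9925 without KO_acetate 3). The KO difference of acetate effects with and without antibiotics gave 0 calls in place of 1 with only its groups, with KO libraries only (adjusted p 0.610 in both), with voom weights (0.0509) and at a mean of at least 1, where Gm2897 is not tested; leave-outs gave 0 to 1. KO abx against control gave 0 in place of 2 with only its groups, voom weights, plain totals, 2 reads added, a mean of at least 1 or KO libraries only, and 0 to 1 with a library left out. KO abx_and_acetate against control gave 1 with quality weights (Fdps) and 1 with KO libraries only (Nanp). The cause of these shifts was not tested.

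Shank1 turned from 0.01 to -0.046 with only the groups compared, -0.012 with plain totals, -0.0032 with quantile normalization, -0.012 without the 5 WT libraries and -0.030 with KO libraries only, and Eno1 to -0.0054 with quantile normalization. With 1 library left out, the ranges that crossed 0 were -0.082 to 0.081 for Shank1, -0.11 to 0.067 for Shank2, -0.41 to 0.042 for Hdac7, -0.23 to 0.020 for Cacna1a, -0.054 to 0.71 for Ppp1r14a, -0.29 to 1.02 for Mobp, -0.0073 to 0.22 for C1qb, -0.030 to 0.54 for Hbb-bt and -0.060 to 0.53 for Alas2. The median of the 22 cholesterol genes stayed above 0 in all 19 settings, from 0.05 (males only) to 0.23.

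The fit on KO libraries only and the leave-outs of WT, KO_acetate and KO_control libraries were chosen after seeing the data. The deposited values are log2 CPM, and the planned count models, DESeq2 and edgeR, were not run on the reads recovered from them. No paired analysis was possible because the labels carry no replicate numbers.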
